A study of Mus musculus with 10 samples.

Results

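The immediate early response genes *Jun*, *Junb*, *Jund*, *Fos*, *Fosb*, *Egr1*, *Ier2*, *Zfp36*, *Zfp36l1* and *Btg2* were followed through 6 chromatin immunoprecipitation sequencing (ChIP-seq) peak lists of WT and Qk-/- mouse cells. These 10 genes, of 55450 in the GENCODE M21 basic annotation of the mm10 genome, were chosen by name as members of this gene class, with earlier results of these data known, though the rule itself uses no measured value. The promoter of a gene was taken as the 2 kb on each side of every annotated transcription start, and a peak was assigned to a gene when it overlapped the promoter or the gene body by at least 1 bp. *Qk*, the gene deleted here, encodes the RNA-binding protein Qki-5 and its splice isoforms, and the series asked where Qki-5, the sterol-responsive transcription factor Srebp2 and RNA polymerase II (Pol II) sit on the genome when *Qk* is present or lost.

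The cells were neural stem cells from the brains of newborn Nestin-CreERT2;Qk L/L pups, labelled as FvB/C57BL6 hybrid (the study's text describes its mice as pure C57BL/6J), in which tamoxifen-inducible Cre is driven by the *Nestin* promoter and exon 2 of *Qk* is flanked by loxP sites. In the Qk-/- libraries *Qk* had been removed by giving the stem cells 4-hydroxytamoxifen in culture. The WT libraries carry the genotype label wild type, and whether those cultures also received 4-hydroxytamoxifen is not given in the sources used here. Cells of both genotypes were then kept for 3 days in Neurobasal medium with B-27 and triiodothyronine, a thyroid hormone that drives oligodendrocyte differentiation, and are labelled as differentiated oligodendrocytes. There was 1 library for each of the 3 antibodies in each of the 2 genotypes, at passage 7 for Qki-5 and Pol II and at passage 8 for Srebp2, with 4 input libraries as controls. With 1 library per group no difference between genotypes has a replicate error, so every comparison below is a description of these libraries without a test.

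Immediate early genes are a class of mostly short genes that are transcribed within minutes of a growth factor, depolarisation or stress signal and need no new protein synthesis for it. The signal reaches them through transcription factors that are already present, among them serum response factor with its ternary complex partners, and CREB. Many of their products are transcription factors themselves, such as the Jun and Fos proteins that pair to form AP-1, while others shut the response down again by destroying mRNA or by slowing the cell cycle.

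The lists held 32280 peaks for WT Pol II, 12835 for Qk-/- Pol II, 7539 for WT Qki-5, 427 for Qk-/- Qki-5, 77 for WT Srebp2 and 28 for Qk-/- Srebp2. The study's text describes larger Qki-5 and Srebp2 peak sets, which were not analysed here, so a gene counted below as without a peak is one without a peak in these lists. They give no read totals, so sequencing depth is unknown, and the fold enrichment of a peak over input is compared below mainly as its rank within its own list, where rank 1 is the strongest peak. The median fold was 5.22 for WT Pol II and 8.43 for Qk-/- Pol II, and genotype, library and peak-calling depth cannot be told apart. At *Qk* itself Pol II had a promoter peak in both genotypes, 14.9-fold in WT and 9.48-fold in Qk-/-, and the WT Qki-5 peak of 8.13-fold had no Qk-/- counterpart. The *Qk* promoter lies outside the deleted exon, so its Pol II peak does not check the deletion. Among mature oligodendrocyte markers, *Cnp* had a WT Pol II promoter peak of 33.4-fold, and none was called at *Mbp*, *Mag*, *Mog*, *Mobp*, *Myrf*, *Aspa* or *Cldn11*. All 4 neural stem cell markers (*Nes*, *Sox2*, *Hes5* and *Vim*, the last at 92.9-fold) carried one, as did 4 of 5 oligodendrocyte lineage markers, 3 of 5 astrocyte markers, 3 of 6 neuronal markers and 0 of 5 microglial markers. The share was 54.1% over all protein-coding genes, and the astrocyte and neuronal counts lie near it. *Sox10* was the lineage marker without a peak, and the *Pdgfra* peak was only 3.61-fold, at 83.8% of the list. The names of the Pol II and Qki-5 peaks begin with mNSC and those of the Srebp2 peaks with OL, although all the samples carry the same cell label. The part that this cell makeup has in the values below was not tested.

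In WT cells all 10 genes had a Pol II peak at the promoter, against 28.4% of all genes and 54.1% of protein-coding genes. In Qk-/- cells 9 of the 10 did, against 23.0% of all genes and 46.5% of protein-coding genes, and the exception was *Fosb*. WT Qki-5 peaks stood at 8 of the 10 promoters, all but *Fos* and *Fosb*, where the background was 10.2% of all genes and 19.4% of protein-coding genes. No promoter or gene body of the 10 held a Qk-/- Qki-5 peak (0.503% of all genes had one at the promoter), a WT Srebp2 peak (0.150%) or a Qk-/- Srebp2 peak (0.0577%). Altogether 17 WT Pol II, 16 Qk-/- Pol II and 11 WT Qki-5 peaks touched the 10 genes or their promoters.

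**Figure D1:**
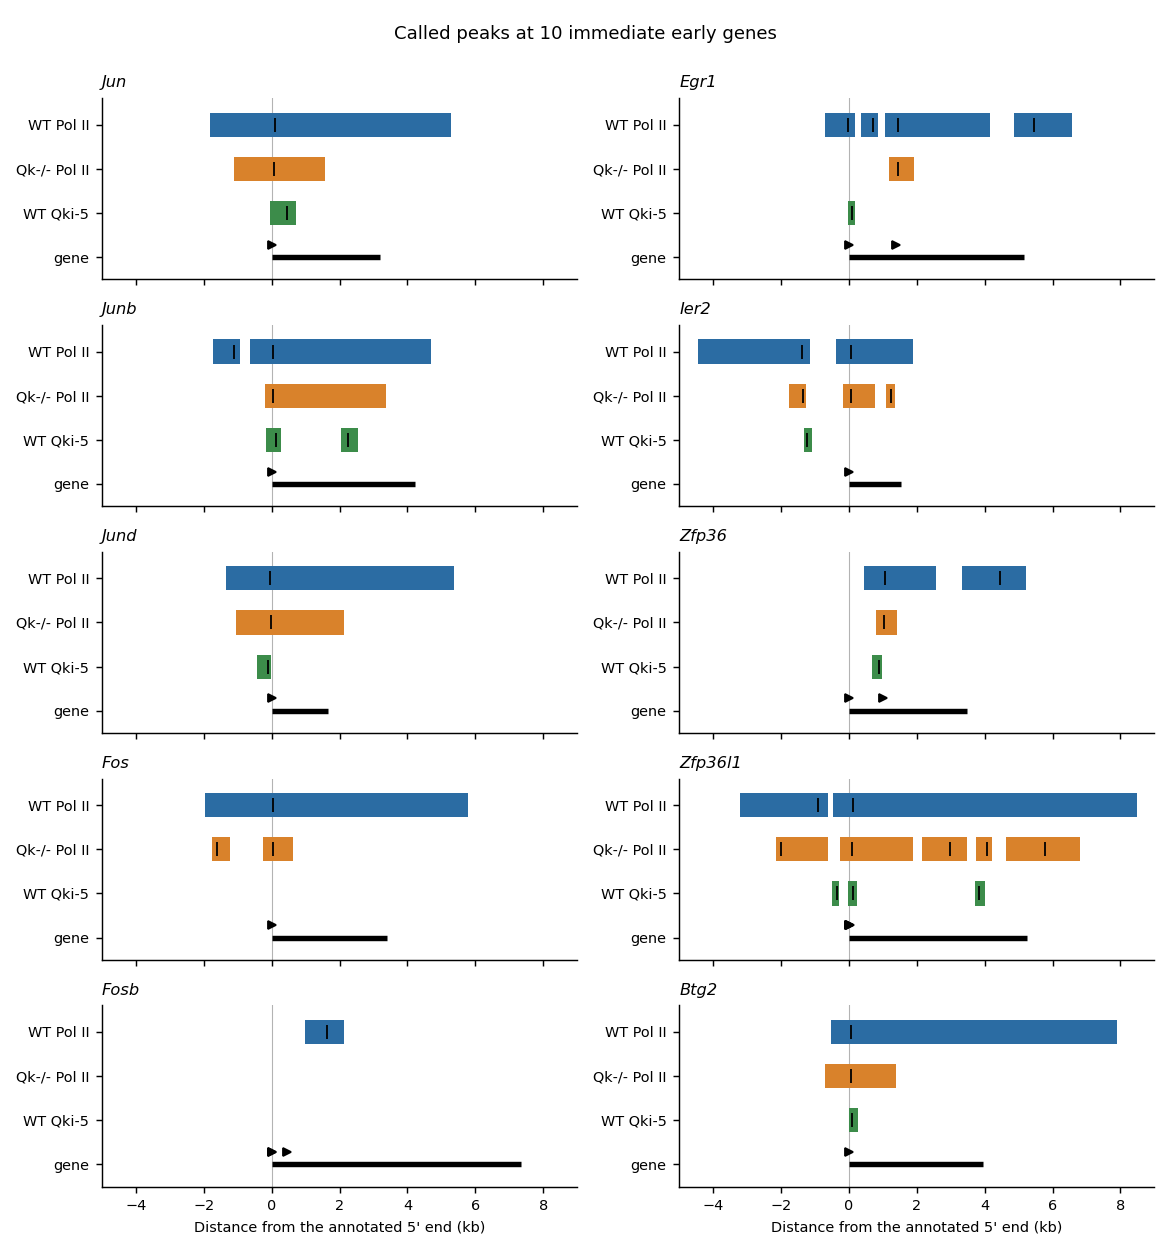
Called peaks at the 10 genes, with distance from the annotated 5′ end in kb on the horizontal axis and 1 row each for WT Pol II (blue), Qk-/- Pol II (orange), WT Qki-5 (green) and the gene (black line, with arrowheads at annotated starts). Vertical ticks mark summits. The strongest WT Pol II peak runs over the whole gene at 7 of the 10 genes, and the Qk-/- peak does so only at *Jund*.

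The DNA just upstream of the RefSeq start is shown for *Jun*, *Junb*, *Fos*, *Fosb*, *Zfp36*, *Zfp36l1* and *Btg2*. At *Fosb* the stretch lies under no called peak, since the WT Pol II peak begins 984 bp downstream of the 5′ end. At the other genes shown it lies under the strongest WT Pol II promoter peak. *Egr1* and *Ier2* have no RefSeq promoter window here, and *Jund* is not shown. The sequences are the 180 bases before the RefSeq start (positions -180 to -1, GRCm38.p6, which has the coordinates of mm10), 5′ to 3′ on the strand of the gene. Capitals mark matches on either strand to TATAAA (the TATA box), to the CCAAT box, and to GGGCGG (the GC box). They also mark TGACG (the core of the cyclic AMP response element), its full form TGACGTCA and, in *Zfp36*, the CArG box, which serum response factor binds. Also marked is TGANTCA, a looser form of the AP-1 element in which N is any base, so a match need not be an AP-1 element. A TGACG match lies inside each TGACGTCA. For *Zfp36* only the 30 bases from -68 to -39 are shown.
Jun, chr4:95052223-95052402: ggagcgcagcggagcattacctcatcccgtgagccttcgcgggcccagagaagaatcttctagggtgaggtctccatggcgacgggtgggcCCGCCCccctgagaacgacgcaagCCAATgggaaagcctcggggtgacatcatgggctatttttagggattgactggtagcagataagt
Junb, chr8:84978749-84978928: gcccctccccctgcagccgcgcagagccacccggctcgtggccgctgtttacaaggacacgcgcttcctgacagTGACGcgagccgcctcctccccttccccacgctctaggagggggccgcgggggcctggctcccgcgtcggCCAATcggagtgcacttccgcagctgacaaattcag
Fos, chr12:85473710-85473889: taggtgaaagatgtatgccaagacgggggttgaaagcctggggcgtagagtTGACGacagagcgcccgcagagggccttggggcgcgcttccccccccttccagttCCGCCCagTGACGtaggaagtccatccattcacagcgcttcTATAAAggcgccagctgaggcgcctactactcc
Fosb, chr7:19310046-19310225: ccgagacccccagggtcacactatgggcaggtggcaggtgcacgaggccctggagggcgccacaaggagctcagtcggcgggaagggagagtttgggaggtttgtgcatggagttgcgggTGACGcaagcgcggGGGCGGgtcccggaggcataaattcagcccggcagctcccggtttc
Zfp36, chr7:28379267-28379296: ccaggCCGCCCCATAAAAGGagaaagctcc
Zfp36l1, chr12:80113014-80113193: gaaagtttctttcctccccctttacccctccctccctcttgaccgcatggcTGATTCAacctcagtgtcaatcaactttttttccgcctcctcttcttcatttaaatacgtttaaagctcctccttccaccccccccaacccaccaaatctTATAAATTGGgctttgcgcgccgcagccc
Btg2, chr1:134079156-134079335: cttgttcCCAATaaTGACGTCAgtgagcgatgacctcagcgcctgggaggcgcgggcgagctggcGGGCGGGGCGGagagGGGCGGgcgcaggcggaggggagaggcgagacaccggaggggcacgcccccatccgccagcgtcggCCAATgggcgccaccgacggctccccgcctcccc

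In the RefSeq promoter windows of 250 bases before to 50 after the start, which exist here for 8 of the 10 genes, TATAAA stood in 3 (*Fos*, *Junb* and *Zfp36l1*), against 13.6% of 32851 windows. CCAAT was found in 4 of the 8 windows (37.4% of all windows), GGGCGG in 5 (35.7%) and TGACG in 4 (20.8%). TGACGTCA occurred only in *Btg2*, at positions -166 to -159 (1.79% of all windows), TGANTCA only in *Zfp36l1*, at -129 to -123 (7.81%), and the CArG box only in *Zfp36*, at -58 to -49 (1.63%). The *Fos* window carried TATAAA at -33 to -28 and TGACG at -66 to -62 and at -129 to -125. In *Junb* the TATAAA match lay at positions 1 to 6 from the RefSeq start, which is 30 bp upstream of the GENCODE start. The *Jund* window held none of these motifs, and it lay around a RefSeq start 1210 bp upstream of the GENCODE start. That window does not reach the *Jund* WT Pol II summit, 44 bp upstream of the GENCODE start. A match is a string of letters in the window and says nothing of what binds there. Bases outside the windows, and *Egr1* and *Ier2*, were not searched, so no match does not mean that a gene lacks the element.

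The Jun family supplies one partner of AP-1. *Jun* (ENSMUSG00000052684.4, chr4:95049034-95052222, minus strand) encodes c-Jun, the archetypal AP-1 subunit and a target of JNK kinases. Its promoter lay under a WT Pol II peak of 61.6-fold, rank 111 of 32280, that was 7106 bp wide and had its summit 89 bp downstream of the start. The Qk-/- peak was 21.1-fold, rank 865 of 12835, and 2696 bp wide. The WT peak thus ran over the full 3189 bp gene and ended 2100 bp past its 3′ end, while the Qk-/- peak ended 1605 bp short of it and covered 49.7% of the gene. WT Qki-5 had a single peak here, 6.62-fold and 767 bp wide, the widest Qki-5 peak of the 10 genes, with its summit 451 bp into the untranslated first part of the gene. The WT Pol II peak also reached the promoter of *Gm12703*, and ChIP-seq carries no strand, so signal of overlapping genes cannot be separated.

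*Junb* (ENSMUSG00000052837.6, chr8:84974484-84978718, minus strand), an AP-1 subunit that often opposes c-Jun in growth control, had the strongest WT Pol II promoter peak of the 10 genes. That peak was 112-fold, rank 5 of 32280, 5332 bp wide, with its summit 51 bp downstream of the start. The peak in Qk-/- was 29.3-fold, rank 311, and 3544 bp wide, the widest Qk-/- Pol II peak of the 10 genes. It covered 79.3% of the annotated 4235 bp span and all of the 1809 bp coding transcript. A second, weaker WT Pol II peak of 4.90-fold lay 1123 bp upstream. WT Qki-5 had a promoter peak of 6.62-fold, 429 bp wide, with its summit 139 bp downstream of the start, and a second peak of 7.96-fold, 496 bp wide, 2243 bp downstream, beyond the coding transcript. The latter was the strongest Qki-5 peak at any of the 10 genes, rank 703 of 7539.

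*Jund* (ENSMUSG00000071076.6, chr8:70698949-70700616, plus strand) encodes the Jun protein that is expressed most evenly in unstimulated cells. Its WT Pol II peak was 39.0-fold, rank 544, 6734 bp wide, and it ran 3717 bp past the end of the 1668 bp gene. Its Qk-/- peak was 39.6-fold, rank 124, and 3193 bp wide, and was the only one of the 9 Qk-/- peaks that still spanned its gene, ending 465 bp past the 3′ end. The promoters of *Gm11175* and, in WT, *Iqcn* lay within reach of the same peaks. The Qki-5 peak was the weakest of the 11 at these genes, 3.15-fold, rank 7353 of 7539, with its summit 118 bp from the start, outside the gene.

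*Fos* (ENSMUSG00000021250.13, chr12:85473890-85477273, plus strand) encodes c-Fos, the partner of Jun proteins whose transcript is among the first to appear after stimulation. Its WT Pol II peak was 43.4-fold, rank 375, and 7763 bp wide, and it ran 2408 bp past the 3′ end of the 3384 bp gene. In Qk-/- cells the promoter peak was 45.2-fold, rank 76, and was 887 bp wide, ended 2743 bp short of the 3′ end and covered 18.9% of the gene. Both summits lay within 45 bp of the start. A separate Qk-/- peak of 9.50-fold and 551 bp stood 1598 bp from the start, within the stretch covered by the single WT peak. No Qki-5 peak was called at *Fos* in either genotype. By comparison, 65.9% of the 910 genes with a WT Pol II fold of at least 39.0, the value of *Jund*, had a WT Qki-5 promoter peak.

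*Fosb* (ENSMUSG00000003545.3, chr7:19302696-19310051, minus strand), the gene of FosB and its long-lived splice form, was the exception among the 10. Its WT Pol II peak was 4.19-fold, rank 23240 of 32280, 1144 bp wide, and its summit lay 1177 bp from the nearest start, in an intron. Ranked by −log10 q, the peak stood at 46.4% of the list. The peak covered 15.6% of the 7356 bp gene, the longest of the 10. Neither Qk-/- Pol II nor Qki-5 had a peak at this gene.

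*Egr1* (ENSMUSG00000038418.7, chr18:34859823-34864984, plus strand) encodes a zinc finger transcription factor induced by growth factors and neuronal activity. Its strongest WT Pol II peak was 44.1-fold, rank 361, 3106 bp wide, with its summit 48 bp from the second annotated start, which lies 1384 bp inside the gene and is the start that RefSeq gives. At the first start a separate WT peak of 9.27-fold had its summit at 25 bp. Further WT peaks of 4.32-fold and 8.17-fold lay within the gene and at its 3′ end. Together these peaks covered 79.3% of the 5162 bp gene. In Qk-/- cells only 1 peak was called, at the second start, 20.2-fold, rank 984, the lowest rank of the 9, and 731 bp wide. The Qki-5 peak (5.48-fold, 219 bp) stood at the first start, with its summit 83 bp downstream, and so overlapped the weaker WT Pol II peak and no Qk-/- Pol II peak.

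*Ier2* (ENSMUSG00000053560.4, chr8:84661331-84662852, minus strand), an intronless gene for a short nuclear protein, was the shortest of the 10, at 1522 bp. Its WT Pol II peak was 63.8-fold, rank 98, and 2258 bp wide, covering the gene and 369 bp beyond. In Qk-/- cells the promoter peak was 33.7-fold, rank 196, and 927 bp wide, and a small separate peak of 5.33-fold lay 1230 bp into the gene. Peaks in Qk-/- cells covered 66.5% of the gene. A further WT Pol II peak of 13.9-fold and a Qk-/- peak of 6.86-fold stood upstream, at the promoter of the neighbouring *Gm26664*. The Qki-5 peak assigned to *Ier2* (4.59-fold, 219 bp) belonged to that upstream position, 1241 bp from the *Ier2* start, and no Qki-5 peak was called at the *Ier2* start itself.

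*Zfp36* and *Zfp36l1* encode RNA-binding proteins that attach to AU-rich elements in mRNA and recruit the machinery that removes the poly(A) tail. *Zfp36* (ENSMUSG00000044786.6, chr7:28376784-28380253, minus strand), whose product is tristetraprolin, had a WT Pol II peak of 61.0-fold, rank 116, 2139 bp wide. Its summit lay 55 bp from the second annotated start, 998 bp inside the longest transcript. With *Qk* lost it was 33.5-fold, rank 197, and 604 bp wide, the narrowest of the 9. A second WT Pol II peak of 20.6-fold and 1894 bp lay across the 3′ end of the gene and no Qk-/- peak was called at that end of the gene. At the promoter, Qki-5 had a peak of 5.06-fold and 311 bp, 123 bp from the second start. The promoter of *Gm44710* lay within reach of the promoter peaks.

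*Zfp36l1* (ENSMUSG00000021127.7, chr12:80107754-80113013, minus strand) had the widest WT Pol II peak of the 10 genes. It was 102-fold, rank 10, and 8961 bp wide, and ran from near the start across the 5260 bp gene to 3229 bp past the 3′ end. In Qk-/- 4 separate peaks touched the gene. The promoter peak of 45.9-fold, rank 71, was 2155 bp wide, and 3 more of 9.97-fold, 9.10-fold and 13.3-fold followed along the gene and past its end. The 4 together covered 82.1% of the gene. Upstream, where the promoter of *1300014J16Rik* lies, WT had a peak of 7.19-fold and Qk-/- a peak of 9.75-fold. Of the 3 Qki-5 peaks, that at the start was 7.27-fold, 264 bp wide and rank 1065, with its summit 12 bp from the Pol II summit. The others were 4.51-fold at 365 bp from the start, outside the gene, and 5.06-fold in the last part of the gene, 3834 bp from the 5′ end.

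*Btg2* (ENSMUSG00000020423.6, chr1:134075170-134079120, minus strand), a p53-responsive antiproliferative gene whose product also promotes mRNA deadenylation, had a WT Pol II peak of 99.1-fold, rank 11, and 8416 bp wide. The peak ended 3947 bp past the 3′ end of the 3951 bp gene, the farthest of the 10. The Qk-/- peak was 36.5-fold, rank 157, and 2074 bp wide, ended 2572 bp short of the 3′ end and covered 34.9% of the gene. The Qki-5 peak was 5.61-fold and 263 bp wide, with its summit 93 bp from the start, in the coding part of the first exon.

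Side by side, the WT Pol II promoter peaks of 9 of the 10 genes ranked within the strongest 1.69% of the list and *Fosb* stood at 72.0%. The median was 0.352%, against 17.9% over all 15750 genes with such a peak. In order of fold the genes were *Junb* (112), *Zfp36l1* (102), *Btg2* (99.1), *Ier2* (63.8), *Jun* (61.6), *Zfp36* (61.0), *Egr1* (44.1), *Fos* (43.4), *Jund* (39.0) and *Fosb* (4.19). Without replicates the order of the genes has no error estimate. Neighbours lay close together in the groups *Zfp36l1* and *Btg2*, *Ier2*, *Jun* and *Zfp36*, and *Egr1* and *Fos*, and their order cannot be told from equality. By −log10 q *Btg2* (0.0248%) ranked above *Zfp36l1* (0.0774%). In the Qk-/- list the order was *Zfp36l1* (45.9), *Fos* (45.2), *Jund* (39.6), *Btg2* (36.5), *Ier2* (33.7), *Zfp36* (33.5), *Junb* (29.3), *Jun* (21.1) and *Egr1* (20.2), with a median rank of 1.53% against 36.9% over all 12770 genes with a peak.

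**Figure D2:**
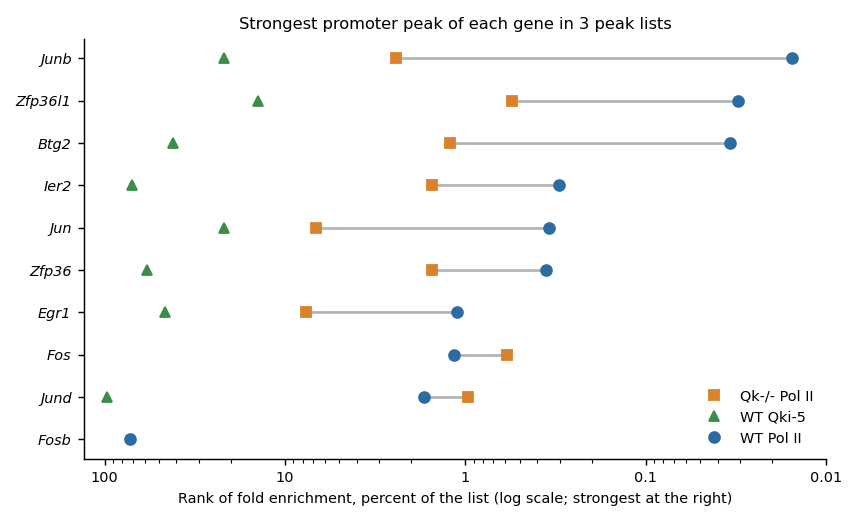
Rank of fold enrichment of each gene's strongest promoter peak, as a percent of its list on a log axis with the strongest peaks at the right, for WT Pol II (circles), Qk-/- Pol II (squares, joined to WT by a line) and WT Qki-5 (triangles). By fold, *Fos* and *Jund* stand further right in Qk-/- than in WT. Ranked by the −log10 q of the peaks, both stood at a larger percent of the Qk-/- list. That list is shorter, so an equal rank is a larger percent of it. The Qki-5 ranks lie between 14.1% and 97.5%.

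Because the 2 Pol II lists differ in length, the genes were also ranked among the 12723 genes that had a promoter peak in both. On that scale 7 of 9 genes held a weaker rank in Qk-/- than in WT, against 48.8% of all these genes and 73.5% of the 884 that also had a WT fold of at least 39.0, the value of the second lowest gene of the 10. The 7 of 9 is thus near the share among similarly strong promoters. *Junb* stood at rank 6 in WT and 524 in Qk-/-. *Jun* went from 196 to 1316 and *Egr1* from 619 to 1492. *Btg2* stood at 14 and 270, *Zfp36l1* at 12 and 117, *Ier2* at 171 and 334 and *Zfp36* at 206 and 335. The other two, *Jund* (883 and 209) and *Fos* (644 and 137), held a stronger rank in Qk-/-. Ranked by −log10 q among the same genes, an alternative chosen after the values were seen, 7 of 9 were again weaker in Qk-/- (48.3% of all and 67.0% of the strong genes), but *Fos* stood at 130 and 133, *Ier2* at 387 and 366 and *Jund* at 479 and 260. As percents of the whole lists by −log10 q, all 9 stood at a larger percent in Qk-/-. *Fos* had 0.235% in WT and 0.631% in Qk-/-, and *Jund* 0.833% and 1.16%. The Qk-/- list is the shorter, so an equal rank is a larger percent of it. Among the 12723 genes the direction at *Fos* and *Ier2* thus differs between fold and −log10 q. *Jund* was stronger in Qk-/- by both there, and stood at a larger percent only in the whole lists by −log10 q. A Qk-/- promoter peak was called for 80.8% of the genes with a WT one and for 97.1% of the 910 strong ones.

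The median width of the strongest WT Pol II promoter peak was 6033 bp for the 10 genes, 1336 bp for all genes with a peak, 2832 bp for the 910 strong genes and 4023 bp for the 210 strong protein-coding genes no longer than *Fosb*. In Qk-/- the median was 2074 bp for the 9 genes and 722 bp for all genes. All 9 peaks were narrower in Qk-/- than in WT. The same held for the strongest promoter peaks of 97.2% of all 12723 genes and 99.5% of the strong ones, so the direction is that of the whole list. Genes that share a peak were each counted. The Qk-/- to WT width ratio had a median of 0.282 for the 9 genes, 0.512 for all genes, 0.470 for the strong genes and 0.442 for the 207 strong, short protein-coding genes with both peaks. *Fos* had the smallest ratio, 0.114, and 1.47% of the 12723 genes and 3.96% of the strong ones had a smaller one. The ratio was 0.235 for *Egr1*, 0.240 for *Zfp36l1* and 0.246 for *Btg2*, values undercut by 9.71%, 10.2% and 10.9% of all genes. *Zfp36* had 0.282, *Jun* 0.379, *Ier2* 0.411 and *Jund* 0.474. *Junb* kept most of its width, with a ratio of 0.665 that 73.9% of all genes undercut.

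**Figure D3:**
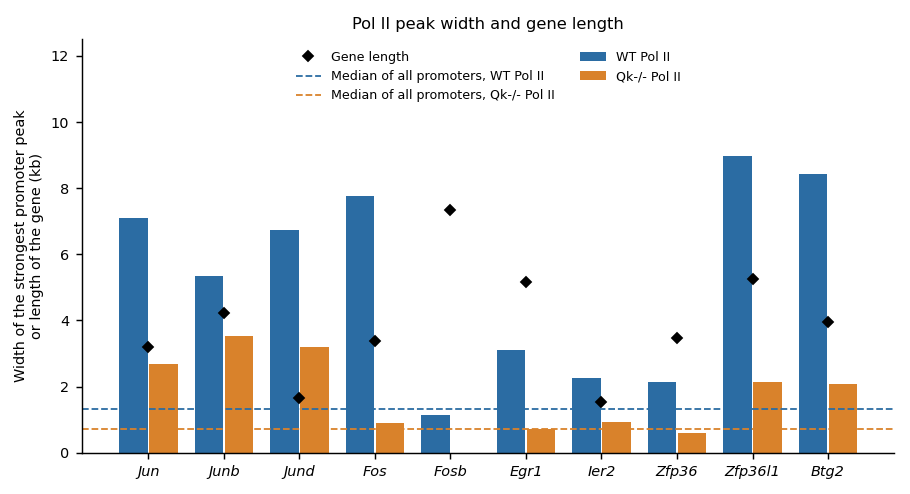
Width in kb of the strongest Pol II promoter peak in WT (blue bars) and Qk-/- (orange bars), with the gene length (diamonds) and the median width over all genes with a promoter peak in each list (dashed lines). All 9 Qk-/- bars are shorter than the WT bars, *Fosb* has no Qk-/- bar, and the WT bar exceeds the gene length at 7 genes.

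The strongest WT Pol II promoter peak spanned the whole gene at 7 of the 10 genes, namely *Jun*, *Junb*, *Jund*, *Fos*, *Ier2*, *Zfp36l1* and *Btg2*. This was the case for 2.30% of all protein-coding genes with a peak, for 11.8% of those no longer than the 7356 bp of *Fosb*, and for 46.2% (97 of 210) of those that were also at least as strong as *Jund*. The 10 genes are short, with a median length of 3710.5 bp against 24163 bp for protein-coding genes with a WT Pol II promoter peak, so the first of these backgrounds compares unlike genes. In Qk-/- the peak spanned 1 of the 9 genes, *Jund*, against 0.587%, 3.37% and 14.5% of the corresponding sets.

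**Figure D4:**
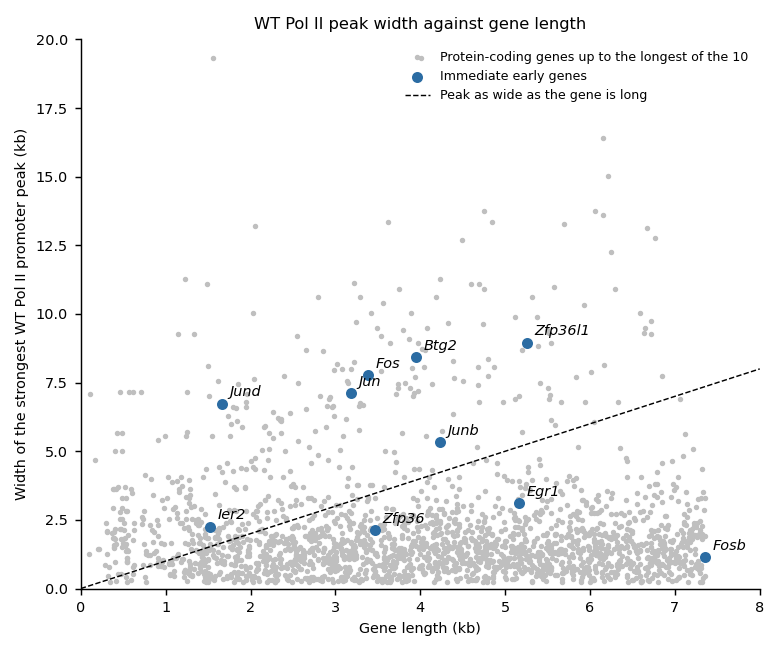
Width of the strongest WT Pol II promoter peak against gene length, both in kb, for the 2188 protein-coding genes with such a peak that are no longer than *Fosb* (grey) and for the 10 immediate early genes (blue). Points above the dashed line have a peak wider than the gene. *Egr1*, *Zfp36* and *Fosb* lie below it.

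Qki-5 and Pol II calls ran together across the whole list. When the 15750 genes with a WT Pol II promoter peak were put into 10 groups of 1575 by Pol II fold, a WT Qki-5 peak was present at 62.3% (95% exact interval 59.8 to 64.7, counting error only) of the strongest group and at 9.27% (7.88 to 10.8) of the weakest. Of the 10 genes, 9 fell in the strongest group, where 8 of the 9 had a Qki-5 peak, and *Fosb* in the weakest. Among all Pol II-bound genes 34.1% had a Qki-5 promoter peak, and among the 910 strong genes 65.9%. A Qk-/- Pol II peak was present at 97.8% of the strongest group and 17.6% of the weakest.

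**Figure D5:**
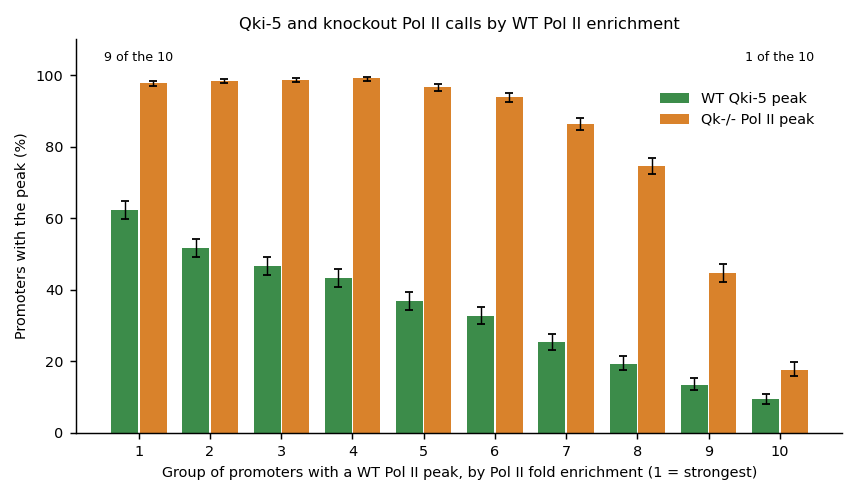
Share of promoters, in percent, with a WT Qki-5 peak (green) or a Qk-/- Pol II peak (orange) in 10 equal groups of the promoters with a WT Pol II peak, ordered by WT Pol II fold with 1 the strongest. Error bars are 95% exact binomial intervals of counting error. The strongest group holds 9 of the 10 genes and the weakest holds *Fosb*.

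The Qki-5 peaks themselves were of middling rank. Their median rank was 44.1% of the list over the 8 genes, against 53.3% over all 5680 genes with a Qki-5 promoter peak and 45.6% over the strong ones, and their folds ran from 3.15 to 7.27. Fold values repeat in this list, and 14 peaks share the value of *Jun* and *Junb*. All 11 Qki-5 peaks at the 10 genes overlapped a WT Pol II peak, and none overlapped a Qk-/- Qki-5 peak. Of these 11, 8 were the strongest at a promoter. Among all 4130 peaks that were the strongest at a promoter, 93.6% overlapped a WT Pol II peak and 4.38% a Qk-/- Qki-5 peak. The summits of the strongest promoter peaks lay 12 bp (*Zfp36l1*), 46 bp (*Btg2*), 74 bp (*Jund*), 88 bp (*Junb*), 108 bp (*Egr1*), 140 bp (*Ier2*), 178 bp (*Zfp36*) and 362 bp (*Jun*) from the nearest WT Pol II summit. At *Egr1* and *Ier2* that summit belonged to a weaker Pol II peak, of 9.27-fold and 13.9-fold, and not to the gene's strongest promoter peak. The 3 further Qki-5 peaks lay 486 bp (*Zfp36l1*, upstream), 2192 bp (*Junb*) and 3713 bp (*Zfp36l1*, in the gene) from the nearest WT Pol II summit. The peaks of *Egr1* and *Ier2* had a width of 219 bp, the smallest in the list and shared by 329 peaks. The strongest Qki-5 promoter peaks had a median width of 288 bp.

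The 30 bases around the Qki-5 summit (mm10, strand of the gene) are given for 6 of the 8 genes with a promoter peak, those with an entry in the RefSeq promoter table, because Qki proteins are known for binding RNA at ACUAAC elements and the summit is where such an element would be looked for. No base is set in capitals.
Jun, chr4:95051756-95051785: agaggaacctatactcataccagttcgcac
Junb, chr8:84978564-84978593: ttacgcacagctgccaactggccgctgctg
Jund, chr8:70698816-70698845: ggcgtcccgctcccgcccctttatgcaaat
Zfp36, chr7:28379363-28379392: tgcatgctaaccagcagataggcggaaggg
Zfp36l1, chr12:80112889-80112918: cgacacaccagatcctagtccttgccccgt
Btg2, chr1:134079012-134079041: aagagaaccgacatgctcccggagatcgcc

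The letters ACTAAC, searched on both strands, a search chosen after the values were seen, were in 0 of the 11 whole Qki-5 peaks at the 10 genes and in 6.49% of 7533 Qki-5 peaks. The 9 peaks at promoters were between 60.3% and 68.1% G and C, with a median of 62.1%. Over all Qki-5 peaks, inside and outside promoters, the median was 59.9% and the quartiles 51.4% and 69.3%. The 9 thus lie between these quartiles, and a set of promoter peaks alone was not compared. No match says only that these letters are not in these windows.

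Other immediate early genes gave the 10 a frame. Of 18 further transcription factors of the class, such as *Myc*, *Klf4* and *Atf3*, 14 had a WT Pol II promoter peak, 12 a Qk-/- one and 9 a Qki-5 one, and no peak spanned its gene. Of 29 effectors, such as phosphatases and growth arrest proteins, 28 had a WT Pol II peak, 27 a Qk-/- one and 16 a Qki-5 one. The promoter peak spanned the gene at 11 effectors in WT and at 6 in Qk-/-. Over all protein-coding genes the shares were 54.1% for WT Pol II, 46.5% for Qk-/- Pol II and 19.4% for WT Qki-5. Among genes with a WT Pol II promoter peak, 34.1% had a Qki-5 one. The peak spanned 2.30% of protein-coding genes with a peak in WT and 0.587% in Qk-/-. For those no longer than *Fosb* the shares were 11.8% and 3.37%. The strongest of both lists were *Ier5* (80.5-fold, rank 35), *Zfp36l2* (77.2-fold, rank 43), *Nfkbia* (72.6-fold, rank 50), *Rhob* (63.0-fold, rank 103) and *Plk2* (57.3-fold, rank 154), so *Junb*, *Zfp36l1* and *Btg2* stood above all of them. *Zfp36l2*, the third AU-rich element binding protein of its family, was the only one of the 47 with a Qk-/- Qki-5 promoter peak, at 7.24-fold. Its Pol II peak was 8728 bp wide in WT and 7749 bp in Qk-/-, whereas *Zfp36* and *Zfp36l1* had 604 bp and 2155 bp in Qk-/-. No WT Pol II peak was called at *Dusp2*, *Egr3* or *Egr4*, nor at *Fosl1* and *Npas4*, the other two without one, which were named after their values were seen. Of 19 upstream regulators, the kinases and transcription factors that carry the signal, all 19 had Pol II promoter peaks in both genotypes and 9 a Qki-5 peak, with a median WT Pol II rank of 15.6%. The medians were 8.40% for the transcription factors and 2.25% for the effectors. Over all genes with a WT Pol II promoter peak the median was 17.9%, and the 15.6% of the regulators lies near it.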

How the data were processed

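Chromatin was immunoprecipitated from WT and Qk-/- cells with antibodies against Qki-5, Pol II and Srebp2. Per the methods, reads were trimmed with Trim Galore, mapped to mm10 with Bowtie2, cleared of PCR duplicates, and MACS2 called peaks in each library against input at a q of 0.05; the submitters' processing notes name Bowtie 1.2.2 and MACS2 2.1.2. The deposited narrowPeak lists give, for each peak, the fold enrichment over input (a ratio), the −log10 p and q values, and a score equal to 10 times the −log10 q. Replicates were not pooled, since there was 1 library per group.

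Here each of 6 lists was intersected (minimum overlap 1 bp, Python 3.11.15, pandas 2.3.3, numpy 2.4.6) with 77258 starts of 55450 genes of GENCODE M21 basic. Peaks were ranked within their list, ties sharing the best rank, and intervals are exact binomial (scipy 1.17.1). Shares and intervals over genes count a peak shared by several genes for each of them. The intervals treat such genes as independent. Promoter sequences came from RefSeq and summit sequences from the genome (pysam 0.24.0, samtools 1.23.1). Overlap and motif functions were tested on simulated data. The 10 genes and the gene lists were chosen with earlier results of these data known. Named from the lists were the 5 strongest by WT Pol II, those with a Qk-/- Qki-5 or Srebp2 promoter peak and up to 3 without a Pol II peak; *Myc*, *Klf4* and *Atf3* were chosen after their values were seen. Alternatives were a q of 0.01, a fold of at least 5, promoters of 1 kb or 2.5 kb, the summit inside the promoter, the nearest start only, ranks by −log10 q and, chosen after seeing the data, RefSeq starts, ranks by fold or by −log10 q among promoters with both Pol II peaks and the longest coding transcript. Input libraries were not analysed here.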

Additional observations from a re-analysis of the deposited data

How the results depend on the processing

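With no replicates, a median or count was held to have moved when it changed by over 1.5 times. The number of the 10 genes with a WT Pol II promoter peak was 10 except at a fold of at least 5, where *Fosb* was lost and 9 remained. The counts of Qk-/- Pol II (9), Qk-/- Qki-5 (0) and Srebp2 (0) held in every alternative run. WT Qki-5 promoter peaks numbered 8, or 7 with promoters of 1 kb or with the nearest start only, and 6 at a fold of at least 5. The median WT Pol II rank of 0.352% became 0.660% among peaks of at least 5-fold and, among promoters with both Pol II peaks, 1.54% by fold and 1.99% by −log10 q, and the Qk-/- median of 1.53% became 2.63% by fold among those promoters. Measured by the longest coding transcript, the Qk-/- peak spanned 2 of the 10 genes, *Jund* and *Junb*, in place of 1. Depth is unknown, so a peak that was not called cannot be told from one below the detection limit. No paired analysis was possible because each antibody and genotype has 1 library.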

Other observations

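Outside the promoters, within 50 kb of the 10 genes, WT Pol II peaks were also called, with a median of 4.50 per gene against 1 for protein-coding genes with a WT Pol II promoter peak and 2 for the 598 strong ones. *Zfp36* had 14, *Ier2* 13, *Egr1* 7, *Fosb* and *Zfp36l1* 5 each, *Fos* 4, *Junb* and *Btg2* 3 each, *Jund* 2 and *Jun* 1. At *Fos* the strongest of the 4 was 18.5-fold. At *Fosb*, whose own promoter peak was 4.19-fold, the strongest flanking peak was 17.2-fold. The flanks hold neighbouring gene bodies, and which gene a flanking peak belongs to was not tested. Qki-5 had 3 flanking peaks at *Fos*, where its promoter had none.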
